A study of Mus musculus with 24 samples.

Results

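The 64 genes described here encode the classical axon guidance ligands and their receptors in mouse retinal endothelial cells: 20 semaphorins and 9 plexins, 4 netrins and 4 Unc5 receptors, 3 Slits and 3 Robo receptors, and 8 ephrins with 13 Eph receptors. They were taken by gene symbol, with the probe set of highest mean intensity standing for each gene, from the 18193 genes that the arrays measure, and comprise 35 ligands and 29 receptors. The 24 arrays hold 8 groups of 3. Every culture was of retinal endothelial cells that were immuno-purified from adult Immorto-mice of mixed gender on a C57Bl6/129 mixed background, in which an H2Kb promoter that answers to gamma interferon drives a temperature-sensitive SV40 large T-antigen. The cells were either Fz4-/-, lacking frizzled-4, the receptor for the secreted ligand Norrin, or wild type (WT). They were passaged at 33 °C, and RNA was prepared at 37 °C without interferon.

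Each genotype was grown in 4 ways. One was 6 hours on Matrigel, a basement membrane extract, after 24 hours in 1% serum. Another was on gelatin. No low-serum step is named for the gelatin cultures, so extract, serum and time cannot be told apart between these groups. The others were with human HEK293 cells that stably express Norrin and with control HEK293 cells, so that Norrin cannot be told apart from other differences between those human lines. The labels do not say how many lines of each genotype were used, or whether replicates are separate cultures. The p-values therefore measure only the spread between these arrays, and a difference between genotypes cannot be told apart from one between lines.

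Axon guidance cues are secreted or membrane-bound proteins that attract or repel growing axons, and blood vessels use the same molecules. Semaphorins signal through plexins, with neuropilins as co-receptors for most secreted ones. Netrins signal through Dcc, neogenin and Unc5 receptors, Slits bind Robo receptors, and ephrins and Eph receptors signal in both directions between touching cells. In vessels, ephrin-B2 (Efnb2) marks arteries and its receptor Ephb4 marks veins. Unc5b lies on arteries and on the tip cells that lead sprouts, and Plxnd1 receives the repellent Sema3e.

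The values are log2 intensities made by RMA, in which 1 unit is a doubling. Fzd4, read first as a check of the genotype, was lower in Fz4-/- cells by 3.42 to 3.74 log2 units in the 4 conditions. All 12 endothelial markers examined lay above the array's median gene on every array of cells grown alone. Of 33 markers of pericytes, fibroblasts, glia, neurons, microglia and pigment epithelium, 5 did so in each Fz4-/- group of cells grown alone and 2 or 3 in the WT groups. In the co-cultures 10 of the 12 endothelial markers did so with WT cells and all 12 with Fz4-/- cells, as did 9 or 10 of the 33 other markers with Fz4-/- cells and 10 or 11 with WT cells. Mouse and human RNA were present there in roughly equal amounts, according to the labels. The arrays fell into 3 sets by median intensity, at 3.21 to 3.31 for Fz4-/- co-cultures, 3.44 to 3.52 for WT co-cultures and 5.02 to 5.11 for cells grown alone, so genotype and array set cannot be told apart in co-culture. In 6 of the 8 groups, all but the Fz4-/- co-cultures, replicates 2 and 3 lay closer to each other (SD of gene differences 0.147 to 0.193) than to replicate 1 (0.299 to 0.354).

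Levels of different probe sets are not comparable with each other, so each was set against the median gene of its array. Of the 64 genes, 28 lay above the median gene on every array of at least 1 group of cells grown alone, and 36 in none. Both sides of some signalling pairs were among the 28. Efnb2 lay between 9.29 and 10.85 over the 12 arrays of cells grown alone, and its receptor Ephb4 between 7.56 and 9.17. Plxnd1 lay between 10.02 and 11.45, while its ligand Sema3e, at 4.65 to 6.47, was above the median gene in none of these groups. The netrins Ntn4 (8.20 to 9.69) and Ntn1 (6.12 to 7.72) and Unc5b (7.29 to 9.23), a receptor of Ntn1, were above it in at least 3 of the 4 groups. Slit2 was above it in all 4 (7.24 to 9.28), whereas Robo1 (3.39 to 3.94) and Robo2 (2.26 to 2.66), which encode the best known Slit receptors, were above it in none.

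**Figure D1:**
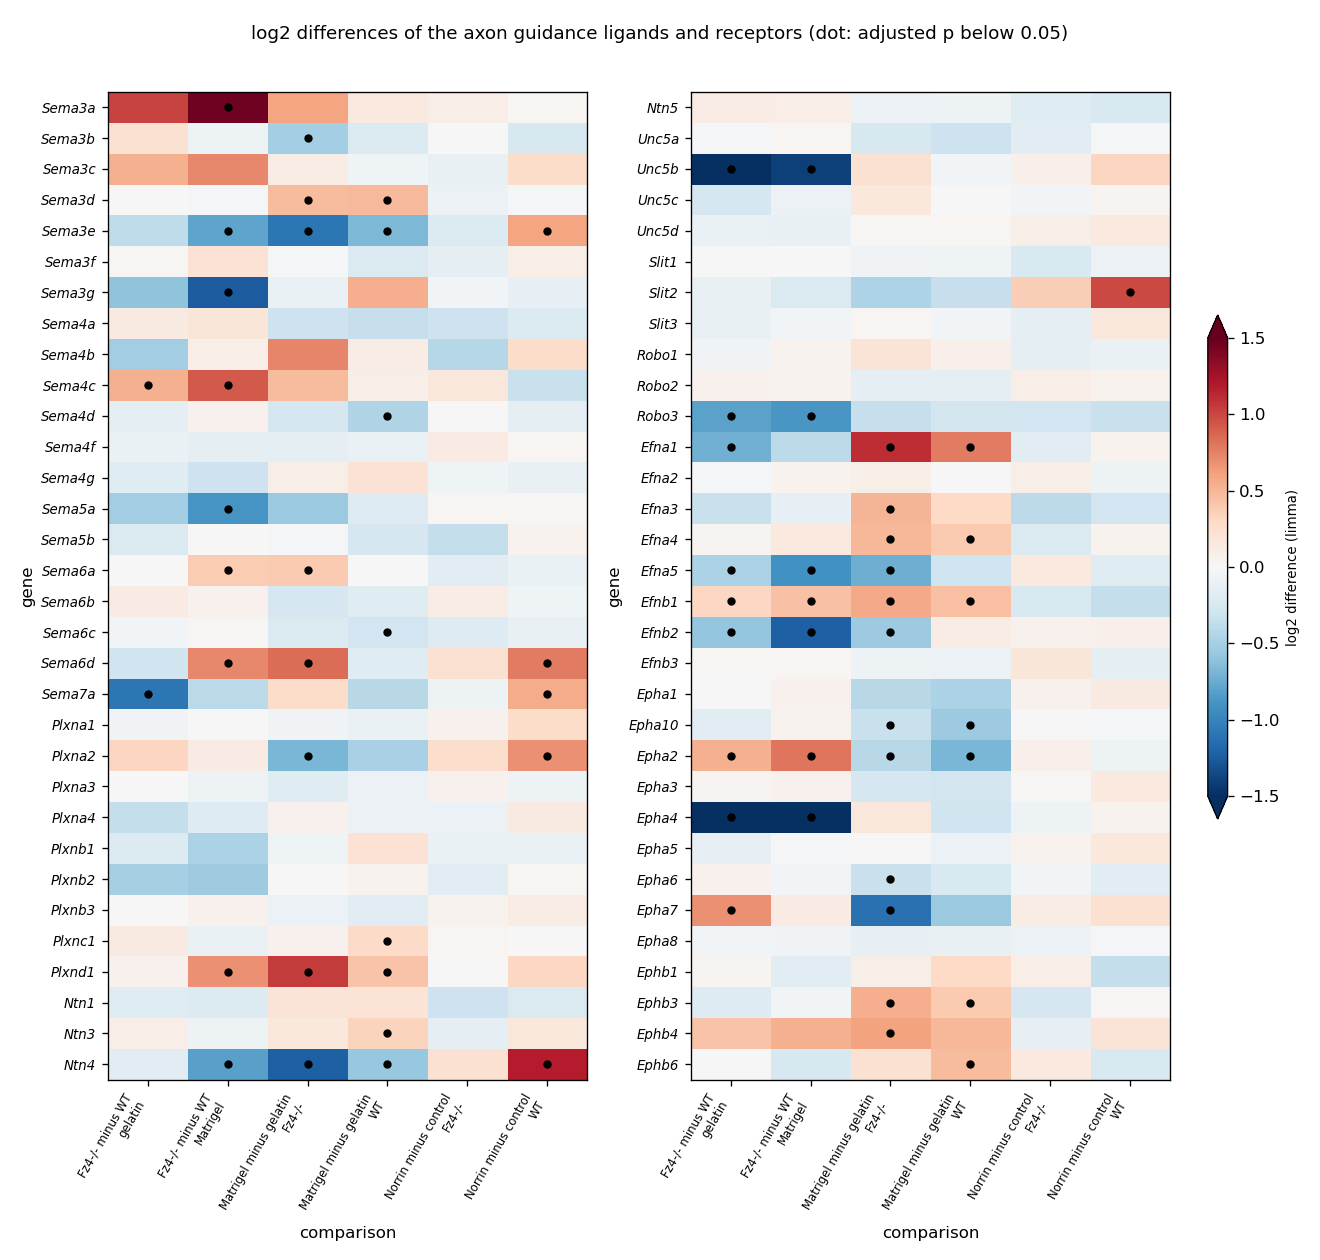
Log2 differences of the 64 genes (rows, by family) in the 6 comparisons that array set does not confound (columns), red for higher and blue for lower in the group named first, with colours saturating at 1.5. Dots mark adjusted p below 0.05 by limma. They number 11, 16, 20, 15, 0 and 6 from left to right, and the column for Norrin in Fz4-/- cells has none.

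With Norrin-expressing HEK293 cells, 5 ligands and 1 receptor rose in WT cells and no member of the set fell, by limma with Benjamini-Hochberg adjustment over all genes at 0.05. The ligands were Ntn4, Slit2, Sema6d, Sema3e and Sema7a, and the receptor was Plxna2. In all 6 the 3 arrays with Norrin-expressing cells lay above the 3 with control cells. With 3 arrays per group this adds little to a call. Between genotypes the called genes of the set were likewise without overlap in 11 of 11 cases on gelatin and 16 of 16 on Matrigel. The share over all genes was not computed. These 6 of 64 are 9.38% of the set, against 9.57% of all genes called in either direction (5.39% higher and 4.18% lower), so the share called is near the background. The median difference of the set was 0.02, against -0.02 for all genes.

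The 250 bases before the transcription start are shown for Ntn4, Slit2 and Sema3e, the ligands that rose in WT cells with Norrin and whose response differed between genotypes by the test given further on. Frizzled-4 signals through beta-catenin, which acts with TCF/LEF factors, and endothelial cells use SoxF factors, so the TCF/LEF core (CTTTGA or TCAAAG) and the SOX core (ACAAT or ATTGT) were searched on both strands and are in capitals. They come from RefSeq on GRCm38.p6, in which all 64 genes matched by gene ID and 55 had such an entry. The windows are at chr10:93640799-93641048 for Ntn4, chr5:47982905-47983154 for Slit2 and chr5:14025026-14025275 for Sema3e, all on the plus strand and each ending just before the start site.
Ntn4: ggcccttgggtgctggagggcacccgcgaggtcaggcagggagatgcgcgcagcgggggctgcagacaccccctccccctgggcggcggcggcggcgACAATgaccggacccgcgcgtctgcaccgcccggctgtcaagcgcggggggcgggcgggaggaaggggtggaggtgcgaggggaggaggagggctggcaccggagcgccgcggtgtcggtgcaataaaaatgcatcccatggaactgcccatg
Slit2: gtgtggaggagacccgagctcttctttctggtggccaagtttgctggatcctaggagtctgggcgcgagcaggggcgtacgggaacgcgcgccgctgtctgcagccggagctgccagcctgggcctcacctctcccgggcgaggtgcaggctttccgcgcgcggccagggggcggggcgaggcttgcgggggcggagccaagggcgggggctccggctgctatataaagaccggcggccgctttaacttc
Sema3e: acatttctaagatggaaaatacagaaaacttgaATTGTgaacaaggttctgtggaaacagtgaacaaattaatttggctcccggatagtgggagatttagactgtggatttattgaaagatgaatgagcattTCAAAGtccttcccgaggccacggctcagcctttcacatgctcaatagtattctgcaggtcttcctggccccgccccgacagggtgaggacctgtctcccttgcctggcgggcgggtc
The Sema3e window holds 1 TCF/LEF core and 1 SOX core, which do not overlap, that of Ntn4 holds 1 SOX core, and that of Slit2 holds neither. Among 32851 windows of the same length, 13.8% hold the TCF/LEF core and 27.7% the SOX core. The windows of Plxna2, Sema7a and both starts of Sema6d hold neither.

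Ntn4 encodes netrin-4, a netrin of vascular basement membranes. In WT cells it lay at 7.43, 7.84 and 7.79 with Norrin-expressing cells, in order of replicate number, against 6.45, 6.58 and 6.51 with control cells. That is 2.26-fold higher (1.17 ± 0.12 on the log2 scale; SE, n = 3 per group, adjusted p = 2.57e-06). Its other probe set rose by 0.91. Slit2, a secreted Robo ligand that repels axons, lay at 8.65, 8.57 and 8.51 with Norrin-expressing cells, against 7.53, 7.53 and 7.69 with control cells. It was 1.99-fold higher (0.99 ± 0.10, adjusted p = 2.86e-06), and its other probe sets were 0.95 and 0.76 higher, the second of them not past the threshold.

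Sema3e, the secreted ligand of plexin-D1, lay at 4.75, 4.79 and 4.61 with Norrin-expressing cells, against 4.15, 4.14 and 4.07 with control cells. The groups lay 1.51-fold apart, more than the spread of either (0.59 ± 0.10, adjusted p = 0.000712), and of its other probe sets 1 rose by 0.79 and 2 were at 0.44 and 0.43 without passing. Plxna2, a receptor of class 6 semaphorins and, with neuropilins, of class 3, lay at 7.68, 7.92 and 7.91 with Norrin-expressing cells, against 7.39, 6.95 and 7.11 with control cells. It rose by 0.69 ± 0.13, and of its other 3 probe sets 2 rose too, while the remaining one was at -0.38 (not past).

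Sema6d, a transmembrane semaphorin that binds plexin-A1, lay at 4.10, 4.53 and 3.99 with Norrin-expressing cells, against 3.56, 3.15 and 3.55 with control cells (0.78 ± 0.16, adjusted p = 0.00324). The control values lie about the median of all probe sets on those arrays, and none of the other 3 Sema6d probe sets passed. Sema7a, a semaphorin held to the membrane by a lipid anchor, rose by 0.56 ± 0.14 (adjusted p = 0.0158), and lost its call without control replicate 1 or Norrin replicate 3 (adjusted p up to 0.0817), while its other probe set was at 0.01. With replicates 2 and 3 averaged Ntn4, Slit2, Sema3e and Sema6d remained.

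Efnb2 and Ephb4 did not pass the test with Norrin in WT cells, at 0.08 ± 0.12 and 0.20 ± 0.13. For Efnb2 this depended on the probe set. Its used probe set lay at 9.06, 8.95 and 8.97 with Norrin-expressing cells, against 9.17, 8.81 and 8.77 with control cells, and the groups overlapped. Another Efnb2 probe set was 0.57 ± 0.12 higher (adjusted p = 0.00891 over all probe sets), and a further 2 were 0.57 and 0.27 higher without passing. No other ephrin, Eph, Unc5 or Robo gene passed in this comparison, and 15 of the 64 had an unadjusted p below 0.05.

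**Figure D2:**
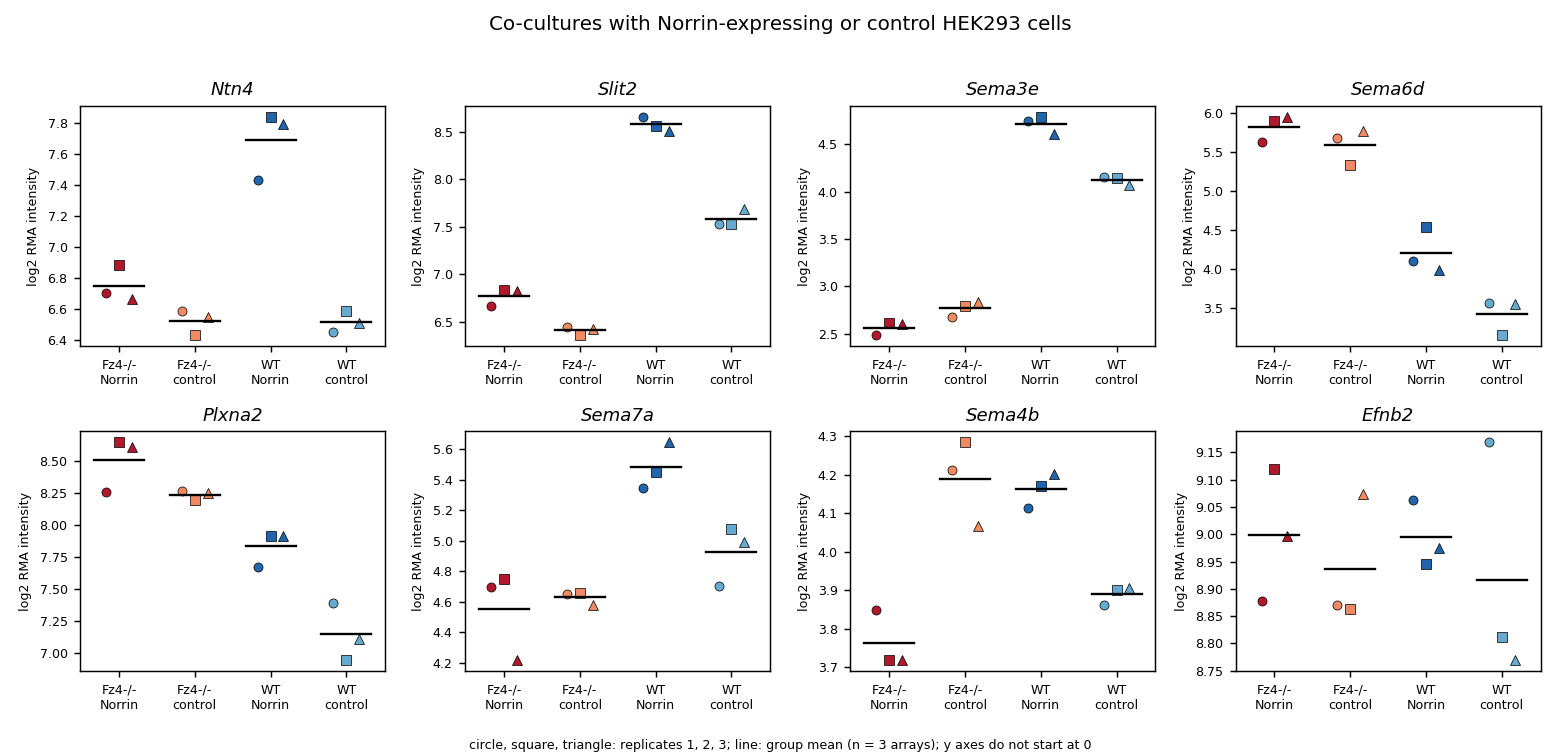
Log2 RMA intensity (y, not from 0) of 8 genes in co-cultures, by group (x), with 1 point per array and a line at the mean of 3. Ntn4 with Norrin-expressing cells lies at 6.66 to 6.88 in Fz4-/- cells and at 7.43 to 7.84 in WT cells, and Efnb2 shows overlapping groups throughout.

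Markers of endothelial cells moved with Norrin too. Of the 12 markers 10 rose in WT cells and 0 fell, with a median of 0.81, and their mean level was 7.0 to 7.34 on the arrays with Norrin-expressing cells, against 6.27 to 6.52 with control cells. In Fz4-/- cells 0 of 12 passed, and the mean level was 7.58 to 7.76 with Norrin-expressing cells, against 7.41 to 7.55 with control cells. Fewer endothelial cells and less RNA per cell cannot be told apart in such mixtures, and of the 33 markers of other cells 2 rose and 3 fell in WT cells. The part of the marker shift in the rise of the 6 genes was not tested. The 12 markers moved by 0.13 to 1.29, and the rises of the 6 genes all lay in that range. Those of Ntn4 and Slit2 lay above the markers' median, and those of Sema6d, Plxna2, Sema3e and Sema7a below it.

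Among 49 measured genes of the wider pathway (co-receptors and intracellular effectors), 8 rose and 5 fell in WT cells with Norrin, with a median of 0.06. These calls were 26.5% of the 49, against 9.57% of all genes. Nrp1, the co-receptor of secreted semaphorins, rose by 2.17 ± 0.21, and Flrt2, a membrane ligand of Unc5 receptors, rose by 1.91 ± 0.19. The endothelial Robo family member Robo4 rose by 0.84 ± 0.17. Rnd1, a small GTPase that binds plexins, fell by 1.70 ± 0.13, and Nrp2 fell by 0.63 ± 0.10. In Fz4-/- cells none of the 49 passed, against 0.456% of all genes, with 7 at an unadjusted p below 0.05.

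In Fz4-/- cells, 0 of the 64 genes passed with Norrin, against 0.456% of all genes (83) by limma, and 6 had an unadjusted p below 0.05. Slit2 was among the 6. It lay at 6.66, 6.84 and 6.83 with Norrin-expressing cells, against 6.45, 6.36 and 6.42 with control cells, groups that did not overlap (0.37 ± 0.10, adjusted p = 0.17). Ntn4 lay at 6.70, 6.88 and 6.66 with Norrin-expressing cells, against 6.58, 6.43 and 6.54 with control cells (0.23 ± 0.12). Sema3e was at 2.48 to 2.61 with Norrin-expressing cells, against 2.68 to 2.83 with control cells, both below the median of all probe sets on those arrays. Sema4b, a transmembrane semaphorin, had the smallest p of the set in Fz4-/- cells, at -0.43 ± 0.10 (adjusted p = 0.0776). Efnb2 was at 0.06 and Ephb4 at -0.13 there.

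The response to Norrin differed between genotypes in 4 of the 64 genes by limma's interaction term, against 2.12% of all genes (0.874% higher and 1.24% lower), all 4 with a lower response in Fz4-/- cells. The difference was -0.94 ± 0.17 for Ntn4 (adjusted p = 0.00383), -0.80 ± 0.14 for Sema3e (0.00386), -0.70 ± 0.14 for Sema4b (0.0106) and -0.63 ± 0.14 for Slit2 (0.0253). Sema4b passed in neither genotype alone, at 0.27 ± 0.10 in WT cells. A second probe set of Ntn4 (-0.99) and one of Sema3e (-0.91) passed as well. The second probe set of Sema4b was at 0.02 in Fz4-/- cells and -0.09 in WT cells, and for Slit2 the other probe sets gave differences of -0.81 and -0.45 that did not pass. Slit2 lost its call without WT control replicate 2, any Fz4-/- control array, or Fz4-/- Norrin replicate 1 or 3 (adjusted p up to 0.0797). No gene of the set passed when replicates 2 and 3 of each group were averaged into 1 sample. For Plxna2 (-0.42 ± 0.18), Sema6d (-0.56 ± 0.22) and Sema7a (-0.63 ± 0.20) the difference between genotypes did not pass. Nor did it for Efnb2 (-0.02) or Ephb4 (-0.32). Of the endothelial markers 4 of 12 had a lower response in Fz4-/- cells and 0 a higher one, with a median of -0.58.

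On gelatin, Fz4-/- cells differed from WT cells in 11 of the 64 genes (17.2%), against 14.9% of all genes called, with 4 higher (7.21% of all genes) and 7 lower (7.73%). The median of the set was -0.04, against -0.004 for all genes. Among ligands 2 ephrin-A, 1 ephrin-B and 1 semaphorin gene fell, and 1 ephrin-B and 1 semaphorin gene rose. Among receptors 1 EphA, 1 Unc5 and 1 Robo gene fell and 2 EphA genes rose. No plexin, netrin, Slit or EphB gene passed.

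The largest difference of the set on gelatin was in Epha4, an Eph receptor that binds ephrins of both classes. It lay at 4.60, 4.65 and 4.58 in Fz4-/- cells on gelatin, against 6.99, 7.39 and 7.35 in WT cells, which is 6.21-fold lower (-2.64 ± 0.25; SE, n = 3 per group, adjusted p = 3.28e-05). All 4 other Epha4 probe sets were lower too, by 0.49 to 3.66. Unc5b lay at 7.49, 7.46 and 7.31 in Fz4-/- cells, against 8.97, 9.08 and 9.22 in WT cells. It was 3.17-fold lower (-1.67 ± 0.20, adjusted p = 0.000198), and its other probe set was at -1.80. These 2 receptors alone kept their calls with replicates 2 and 3 averaged.

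Sema7a fell by 1.09 ± 0.26 (adjusted p = 0.015), with 6.21, 6.05 and 6.20 in Fz4-/- cells against 7.81, 6.91 and 7.0 in WT cells. It lost its call without Fz4-/- replicate 2. Its other probe set fell by 0.77. Efna1, a ligand of Epha2, fell by 0.72 ± 0.13, lying at 7.52 to 7.58 in Fz4-/- cells against 8.11 to 8.39 in WT cells. Epha2 itself was higher by 0.53 ± 0.09, at 10.07 to 10.21 in Fz4-/- cells against 9.53 to 9.66 in WT cells. Efna5, another ephrin-A, fell by 0.48 ± 0.10. These 3 ephrin and Eph genes kept their calls without any 1 array. Efna5 lost its call with arrays centred on their medians and when only the arrays compared were fitted, and all 3 lost theirs with replicates 2 and 3 averaged.

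The other 5 calls on gelatin rested on more of the arrays. Robo3 (-0.80 ± 0.22), known for the midline crossing of commissural axons, and Sema4c (0.54 ± 0.16), a ligand of plexin-B2, were lost without any array but WT replicate 1. Efnb1 (0.31 ± 0.09) and Efnb2 (-0.57 ± 0.17) were lost without any but Fz4-/- replicate 1, and Epha7 (0.68 ± 0.20) without any of the 6. For Robo3 the other probe set was at 0.10. With the replicate number as a block, for which the limits of the pairing check are given under processing, 18 genes passed, all 11 among them. The added 7 were Ephb4 (0.42), Plxna2 (0.33), Sema3a and Sema3c (0.54), which were higher in Fz4-/- cells, and Plxna4 (-0.36), Plxnb2 (-0.49) and Sema4b (-0.53), which were lower.

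On Matrigel, 16 of the 64 genes (25.0%) differed between genotypes, against 15.7% of all genes, with 7 higher (6.91% of all genes) and 9 lower (8.77%) in Fz4-/- cells. The median of the set was -0.03, against 0.02 for all genes. Outside the semaphorins 1 ephrin-A, 1 ephrin-B, 1 EphA, 1 netrin, 1 Robo and 1 Unc5 gene fell, and 1 ephrin-B, 1 EphA and 1 plexin gene rose.

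Epha4 lay at 4.40, 4.84 and 5.07 in Fz4-/- cells against 6.27, 7.29 and 7.29 in WT cells (-2.18 ± 0.25, adjusted p = 0.000137). Unc5b lay at 8.22, 7.44 and 7.29 in Fz4-/- cells against 8.82, 9.23 and 9.08 in WT cells (-1.40 ± 0.20). As on gelatin, the arrays of the genotypes did not overlap for either. Of the 4 genes higher on gelatin 3 were also higher on Matrigel (3 of 7), namely Efnb1, Epha2 and Sema4c. Of the 7 lower on gelatin 5 were also lower on Matrigel (5 of 9), namely Efna5, Efnb2, Epha4, Robo3 and Unc5b, and 0 were called in opposite directions. Robo3, at -0.88 on Matrigel, lost its calls on both substrates with all its probe sets averaged.

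Semaphorins made up 7 of the 16, with 4 higher and 3 lower of 20. Sema3a, which signals through neuropilin-1 and plexin-A receptors, lay at 10.28, 8.95 and 8.74 in Fz4-/- cells on Matrigel, against 7.82, 7.95 and 7.83 in WT cells. It rose by 1.46 ± 0.34 (adjusted p = 0.0127) and by 0.98 without Fz4-/- replicate 1, its highest array. On gelatin Sema3a was at 1.01 ± 0.34 without passing (adjusted p = 0.0691). It passed there under the replicate block (0.0458) and, at 0.61, with replicate 1 of every group left out (0.00179). Its other probe sets were at 1.22 and 0.90 there and at 1.83 and 1.29 on Matrigel. Sema4c rose by 0.92 ± 0.16, with 7.97, 7.49 and 7.50 in Fz4-/- cells against 6.89, 6.64 and 6.66 in WT cells. Sema3g, a secreted semaphorin of arteries that binds neuropilin-2, fell by 1.25 ± 0.26. It lay at 3.44 to 3.89 in Fz4-/- cells against 4.34 to 5.46 in WT cells, all below the median gene. Sema6d was 0.72 ± 0.21 higher, but another of its probe sets was lower by 1.28 ± 0.29 and passed as well, so its direction is not settled.

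Ntn4 and Sema3e were called lower on Matrigel and not on gelatin, a difference between substrates that did not pass its own test. With replicate 1 of every group left out Sema3e passed on gelatin too, at -0.50 (adjusted p = 0.0283). Ntn4 lay at 8.36, 8.20 and 8.20 in Fz4-/- cells, against 9.05, 9.02 and 9.14 in WT cells (-0.82 ± 0.09, adjusted p = 6.8e-05), and it was at -0.16 ± 0.09 on gelatin without passing. Sema3e fell by 0.79 ± 0.21, and its receptor Plxnd1 rose by 0.68 ± 0.10. Plxnd1 lay at 11.45, 11.24 and 11.22 in Fz4-/- cells, against 10.49, 10.68 and 10.69 in WT cells, and was the only plexin called, though Plxnb1 (-0.47) and Plxnb2 (-0.53) passed under the replicate block. Efna5 fell by 0.91 ± 0.10 and Epha2 rose by 0.80 ± 0.09. Sema5a (-0.88 ± 0.27), Sema6a (0.38 ± 0.11), Sema3e, Robo3 and Sema6d were each lost without 1 of 3 or more of the 6 arrays, those of Sema6d without any Fz4-/- array and those of Robo3 without Fz4-/- replicate 3 or WT replicate 2 or 3. Sema3e and Sema5a kept theirs without WT replicate 1 alone, and Sema6a without WT replicate 2 alone. Sema5a lay at 2.45 to 4.05 on the arrays of cells grown alone, below the median of all probe sets. Its call was also lost with arrays centred on their medians and with all its probe sets averaged. The other 11 calls stood without any 1 array. With replicates 2 and 3 averaged Efna5, Efnb2, Epha2, Epha4, Ntn4 and Plxnd1 remained.

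**Figure D3:**
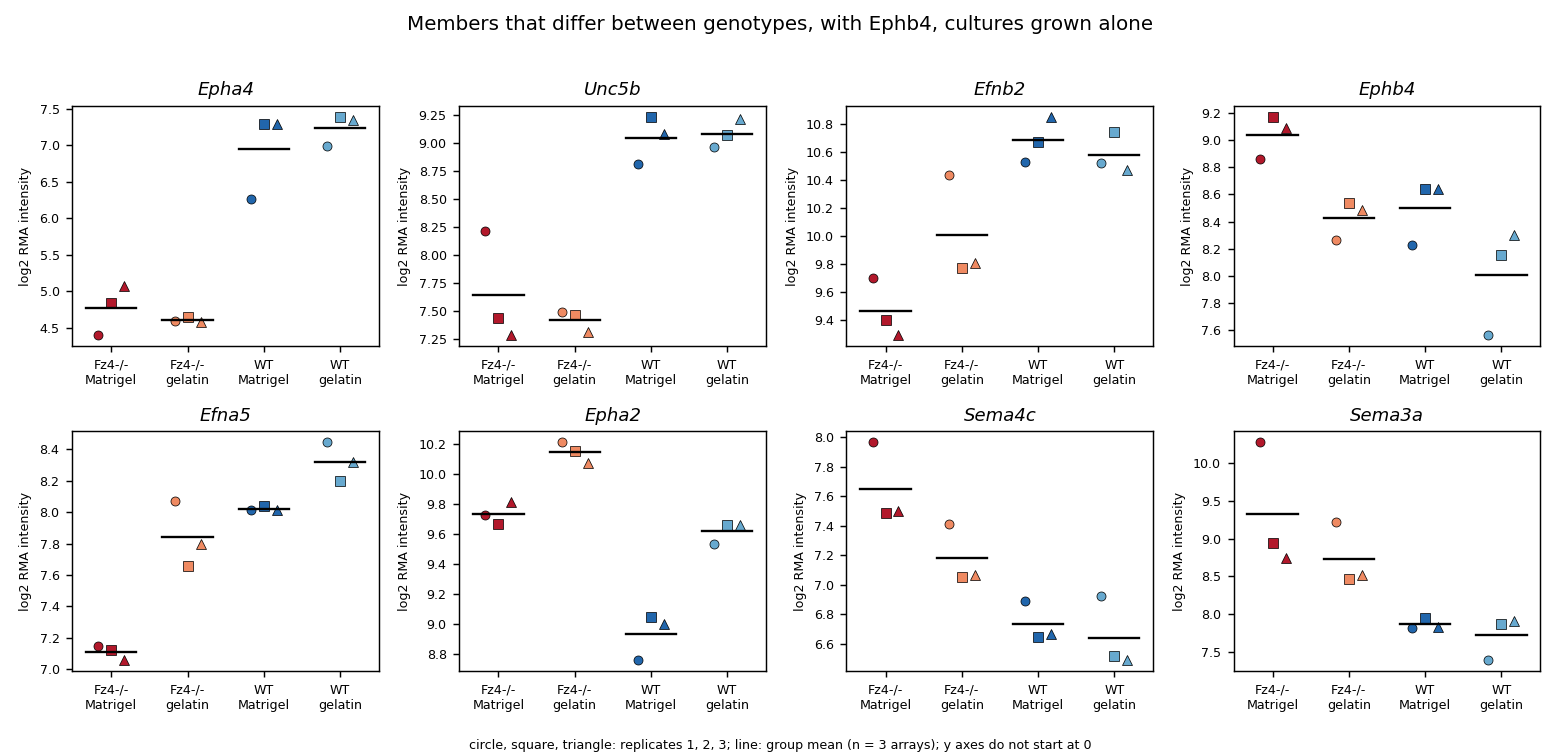
Log2 RMA intensity (y, not from 0) of 8 genes in cells grown alone, by group (x), with 1 point per array and a line at the mean of 3. Epha4 lies at 4.40 to 5.07 on the Fz4-/- arrays and at 6.27 to 7.39 on the WT arrays.

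Efnb2 and Ephb4, the arterial ligand and the venous receptor, had differences of opposite sign in Fz4-/- cells grown alone, of which only those of Efnb2 passed as fitted. Efnb2 lay at 9.70, 9.40 and 9.29 in Fz4-/- cells on Matrigel, against 10.53, 10.67 and 10.85 in WT cells, which is 2.33-fold lower (-1.22 ± 0.17, adjusted p = 0.000647). On gelatin it lay at 10.43, 9.77 and 9.81 in Fz4-/- cells, against 10.52, 10.74 and 10.47 in WT cells (-0.57 ± 0.17, adjusted p = 0.0467). The gelatin call was lost with arrays centred on their medians, when only the arrays compared were fitted, and with averaged replicates. It was also lost without any array but Fz4-/- replicate 1. The 3 other Efnb2 probe sets were lower by 1.24 to 1.34 on Matrigel, and all 3 passed there.

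Ephb4 lay at 8.86, 9.17 and 9.09 in Fz4-/- cells on Matrigel, against 8.22, 8.64 and 8.64 in WT cells (0.54 ± 0.18, adjusted p = 0.0701). On gelatin it lay at 8.26, 8.54 and 8.48 in Fz4-/- cells, against 7.56, 8.16 and 8.30 in WT cells (0.42 ± 0.18, adjusted p = 0.163). Ephb4 passed in neither comparison as fitted, and in both with the replicate number as a block (adjusted p = 0.00276 on Matrigel and 0.0105 on gelatin), being higher in Fz4-/- cells at each number. It also passed with replicate 1 of every group left out, at 0.49 on Matrigel (0.00217) and 0.28 on gelatin (0.0248). On Matrigel it passed with arrays centred on their medians too. It did not pass under the other settings or with any single array left out. Of 10 other arterial genes, 4 were lower and 0 higher in Fz4-/- cells on gelatin, and 5 lower and 0 higher on Matrigel. Of 6 other venous genes 3 were higher and 0 lower in each. Over all genes 7.21% were higher and 7.73% lower on gelatin, and 6.91% higher and 8.77% lower on Matrigel. Of the endothelial markers 3 of 12 were higher and 0 lower in each, and of the 33 markers of other cells 3 were higher and 3 lower on gelatin and 2 higher and 4 lower on Matrigel. Their part in the values of the guidance genes was not tested. Sox17 (-4.82 ± 0.18 on gelatin) and Dll4 (-1.65 ± 0.25) are among the arterial genes, and Nr2f2 (0.56 ± 0.13) among the venous.

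In the wider pathway 6 of 49 genes were higher and 6 lower in Fz4-/- cells on gelatin, and 11 were higher and 8 lower on Matrigel. These calls were 24.5% of the 49 on gelatin and 38.8% on Matrigel, against 14.9% and 15.7% of all genes. The neuropilins, counted here and among the arterial and venous genes, went opposite ways. Nrp1 fell by 1.43 ± 0.21 on gelatin and by 1.48 ± 0.21 on Matrigel, while Nrp2 rose by 2.38 ± 0.26 and by 2.47 ± 0.26. Crmp1, a cytoplasmic mediator of Sema3a signals, fell by 2.55 ± 0.25 on gelatin, and the actin-binding gene Ablim1 fell by 1.78 ± 0.21. Srgap3, which encodes a Robo effector, was 0.93 ± 0.17 higher there. On Matrigel the Rac activator Tiam1 was 1.47 ± 0.24 higher.

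Matrigel against gelatin changed 20 of the 64 genes in Fz4-/- cells (31.2%), against 19.7% of all genes, 10 up (7.91% of all genes) and 10 down (11.8%). In WT cells it changed 15 (23.4%), against 18.4% of all genes, 9 up (6.71% of all genes) and 6 down (11.7%). The median of the set was -0.02 in Fz4-/- cells and -0.09 in WT cells, against -0.05 for all genes in each. With arrays centred on their medians the split in WT cells was 6 up and 7 down. Of the genes that rose, 6 did so in both genotypes (6 of 10 in Fz4-/- and 6 of 9 in WT cells), namely Efna1, Efna4, Efnb1, Ephb3, Plxnd1 and Sema3d. Of those that fell, 4 did so in both (4 of 10 and 4 of 6), namely Epha2, Epha10, Ntn4 and Sema3e.

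By calls, more ephrin genes rose than fell on Matrigel, and EphA receptor genes fell without any rising. Several of these calls depended on single arrays or on the processing. Of the 5 ephrin-A genes 3 rose and 1 fell in Fz4-/- cells, and 2 rose and 0 fell in WT cells. Efna1 lay at 8.88, 8.50 and 8.58 on Matrigel in Fz4-/- cells, against 7.53, 7.52 and 7.58 on gelatin (1.11 ± 0.13, adjusted p = 0.000341). The WT values were 8.77, 9.09 and 9.25 on Matrigel, against 8.11, 8.39 and 8.29 on gelatin (0.77 ± 0.13). In both genotypes every Matrigel array lay above every gelatin array. Efna4 was 0.50 ± 0.12 higher in Fz4-/- cells, lost without Matrigel replicate 3, and 0.40 ± 0.12 in WT cells, lost without Matrigel replicate 1 or 3 or gelatin replicate 2 or 3. The WT call of Efna4 was also lost after quantile normalization, after centring on array medians, and when only the arrays compared were fitted. Efna5 fell by 0.73 ± 0.10 in Fz4-/- cells and was at -0.30 in WT cells without passing (adjusted p = 0.0698), except under the replicate block (0.0335).

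Among 9 EphA receptors 4 fell in Fz4-/- cells and 2 in WT cells, and 0 rose in either. Epha2 lay at 9.73, 9.66 and 9.81 on Matrigel in Fz4-/- cells, against 10.21, 10.15 and 10.07 on gelatin (-0.41 ± 0.09), a call lost after quantile normalization and with replicates 2 and 3 averaged. Its WT values were 8.76, 9.05 and 9.0 on Matrigel, against 9.53, 9.66 and 9.66 on gelatin (-0.68 ± 0.09, adjusted p = 0.000776). Efna1 and its receptor Epha2 thus moved in opposite directions in both genotypes. Epha10, an Eph receptor without kinase activity, fell by 0.34 ± 0.09 in Fz4-/- cells and by 0.55 ± 0.09 in WT cells, at levels below the median gene. The Fz4-/- call was lost without Matrigel replicate 1 or 3 or gelatin replicate 3. Epha7 fell by 1.12 ± 0.20 in Fz4-/- cells, with 5.97, 6.24 and 6.71 on Matrigel against 7.42, 7.49 and 7.37 on gelatin, and was at -0.55 in WT cells without passing (adjusted p = 0.0805). With replicate 1 of every group left out it passed there at -0.88 (0.00697).

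Among ephrin-B and EphB genes, Efnb1 rose by 0.57 ± 0.09 in Fz4-/- cells and by 0.45 ± 0.09 in WT cells, where its call was lost with all its probe sets averaged. Ephb3, an ephrin-B receptor, rose by 0.55 ± 0.09 and 0.39 ± 0.09 in the same order, and lost its WT call without gelatin replicate 2. Ephb4 was 0.61 ± 0.18 higher on Matrigel in Fz4-/- cells (adjusted p = 0.0371), lost without any array but Matrigel replicate 1. In WT cells it was 0.49 ± 0.18 higher without passing (adjusted p = 0.0833). It passed there under the replicate block (0.00562), without Matrigel replicate 1 (0.0495) and, at 0.41, with replicate 1 of every group left out (0.0075). Efnb2 was 0.54 ± 0.17 lower on Matrigel in Fz4-/- cells (adjusted p = 0.0496), which was lost without Matrigel replicate 2 or 3 or gelatin replicate 1 or 3. This call was also lost after quantile normalization or centring, among genes above the median level alone, with only the arrays compared, and with averaged replicates. In WT cells Efnb2 stood at 0.11 ± 0.17.

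Plxnd1 and its ligand Sema3e moved apart on Matrigel. Plxnd1 lay at 11.45, 11.24 and 11.22 on Matrigel in Fz4-/- cells, against 10.22, 10.26 and 10.29 on gelatin (1.05 ± 0.10, adjusted p = 0.000106). Plxnd1 in WT cells was at 10.49, 10.68 and 10.69 on Matrigel, against 10.02, 10.23 and 10.32 on gelatin (0.43 ± 0.10), a call lost without Matrigel replicate 2 (adjusted p = 0.051). Sema3e fell by 1.09 ± 0.21 in Fz4-/- cells, with 4.65, 4.79 and 4.77 on Matrigel against 5.83, 5.76 and 5.88 on gelatin. In WT cells it fell by 0.68 ± 0.21, a call lost without Matrigel replicate 1 or 2 or gelatin replicate 2 or 3. Sema3d rose by 0.47 ± 0.07 in Fz4-/- cells and by 0.49 ± 0.07 in WT cells, between 2.75 and 3.32 on all arrays, below the median of all probe sets. Sema6d (0.83 ± 0.21) and Sema6a (0.39 ± 0.11) passed in Fz4-/- cells, and Plxna2 fell there by 0.69 ± 0.17. Plxna2 was at -0.49 in WT cells without passing (adjusted p = 0.0664), though its 3 other probe sets fell by 0.56 to 0.76 there. It passed there under the replicate block (0.00484) and, at -0.42, with replicate 1 of every group left out (0.00928). Sema6d lost its call without Matrigel replicate 1, Plxna2 without Matrigel replicate 2, and Sema6a without Matrigel replicate 2 or 3 or gelatin replicate 2.

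Ntn4 had the largest fall of the set in Fz4-/- cells. It lay at 8.36, 8.20 and 8.20 on Matrigel, against 9.62, 9.39 and 9.43 on gelatin, which is 2.34-fold lower (-1.23 ± 0.09, adjusted p = 1.98e-05). WT cells had 9.05, 9.02 and 9.14 on Matrigel, against 9.69, 9.62 and 9.61 on gelatin (-0.57 ± 0.09, adjusted p = 0.00126). The groups did not overlap in either genotype. In WT cells Ephb6, an Eph receptor without kinase activity (0.48 ± 0.12), Ntn3 (0.34 ± 0.11), the Sema7a receptor Plxnc1 (0.29 ± 0.09), Sema6c (-0.28 ± 0.09) and Sema4d (-0.45 ± 0.12), the ligand of plexin-B1, also passed. Another Sema4d probe set rose by 0.44 and passed, so its direction is not settled. Plxnc1 was lost without any of the 6 arrays, Sema6c without any but gelatin replicate 2, Ntn3 without Matrigel replicate 1 or 2 or gelatin replicate 2 or 3, and Ephb6 without gelatin replicate 2. Sema4d was lost without Matrigel replicate 1 or 3 or gelatin replicate 3. Ntn3 (3.38 to 4.03) and Plxnc1 (3.31 to 3.74) lay below the median of all probe sets on the arrays of cells grown alone. In Fz4-/- cells Efna3 (0.51 ± 0.12), Sema3b (-0.51 ± 0.11) and Epha6 (-0.34 ± 0.10) were the remaining calls. Efna3 was lost without Matrigel replicate 1 or 2, and Epha6 without any array but Matrigel replicate 1. Epha6 lay at 2.49 to 3.03 on the arrays of cells grown alone, below the median of all probe sets. Endothelial markers rose too, 3 of 12 in Fz4-/- cells and 2 of 12 in WT cells with 0 lower in either, and of the 33 markers of other cells 4 rose and 6 fell in Fz4-/- cells and 4 rose and 5 fell in WT cells. Their part was not tested.

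By limma's interaction term 0 of the 64 genes responded differently to Matrigel in the genotypes, against 0.0165% of all genes (3 genes, 0.0055% higher and 0.011% lower), with 6 at an unadjusted p below 0.05. The 2 smallest p-values were those of Ntn4 (-0.65 ± 0.12, adjusted p = 0.187) and Plxnd1 (0.62 ± 0.14, adjusted p = 0.446). Both are genes whose change on Matrigel was larger in Fz4-/- cells. Ntn4 passed when replicate 1 of every group was left out. Efnb2 was at -0.65 and Ephb4 at 0.12 without passing.

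**Figure D4:**
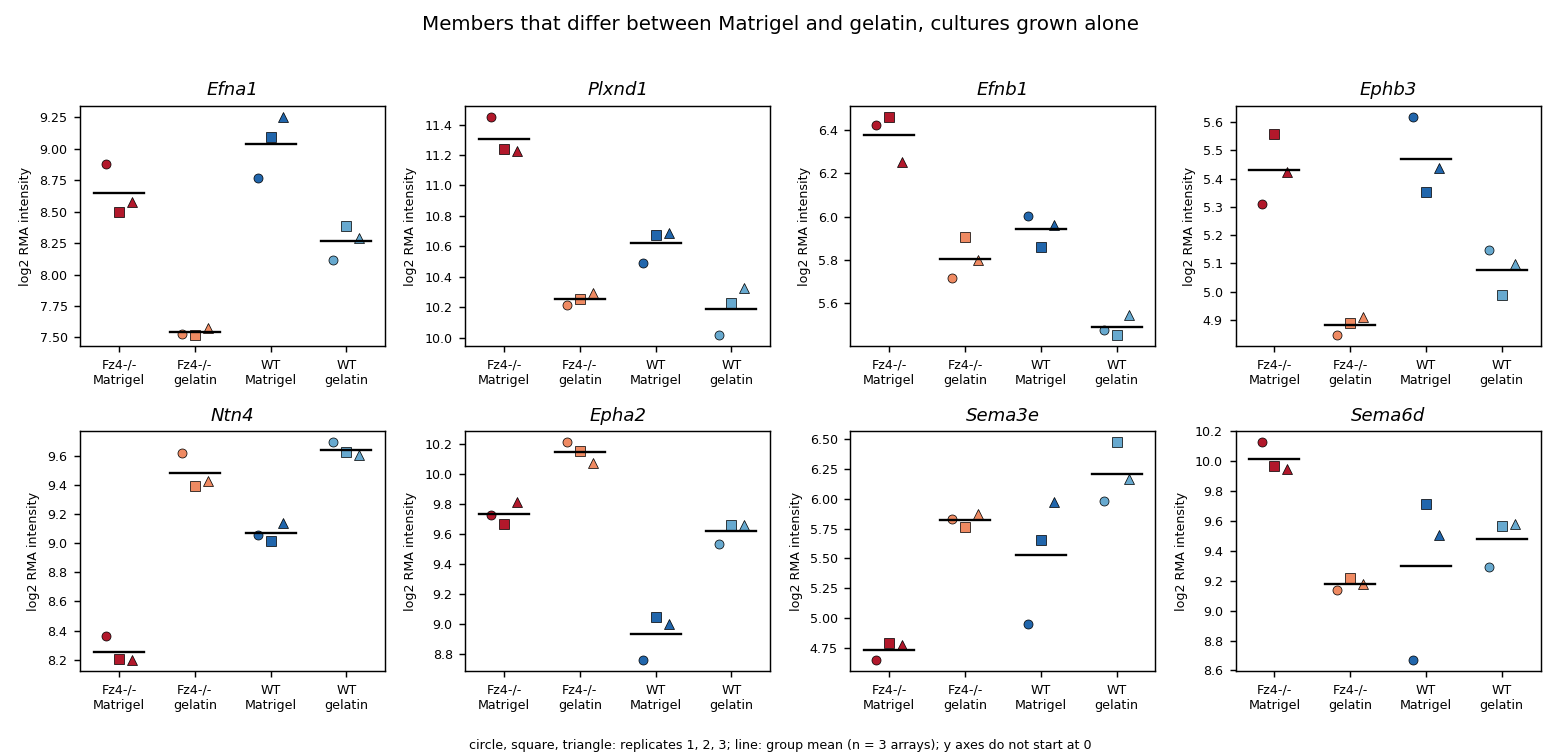
Log2 RMA intensity (y, not from 0) of 8 genes in cells grown alone, by group (x), with 1 point per array and a line at the mean of 3. Plxnd1 on Matrigel lies at 11.22 to 11.45 in Fz4-/- cells and at 10.49 to 10.69 in WT cells, and Ntn4 is lower on Matrigel than on gelatin in both.

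In the wider pathway 5 of 49 genes rose and 7 fell on Matrigel in Fz4-/- cells, and 6 rose and 4 fell in WT cells. The shares called, 24.5% in Fz4-/- cells and 20.4% in WT cells, were near those of all genes, 19.7% and 18.4%. Rnd1 fell by 1.85 ± 0.20 in Fz4-/- cells and by 1.57 ± 0.20 in WT cells. Flrt2 rose by 0.65 ± 0.16 and by 1.16 ± 0.16 in the same order, and Ablim1 by 0.86 ± 0.21 and 0.96 ± 0.21. The netrin receptor Dcc fell by 0.43 ± 0.10 and 0.44 ± 0.10. Rnd3, a relative of Rnd1, fell by 1.15 ± 0.24 in Fz4-/- cells.

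In co-culture the genotypes are given as a description, since each lies on an array set of its own. Fz4-/- cells differed in 43 of 64 genes with Norrin-expressing cells, 8 higher and 35 lower, against 49.9% of all genes (11.5% higher and 38.4% lower). With control cells they differed in 38, 10 higher and 28 lower, against 50.9% of all genes (12.1% higher and 38.8% lower). The median of the set was -0.33 with Norrin-expressing cells and -0.23 with control cells, against -0.20 for all genes in each. Of the 20 semaphorins 5 were higher and 11 lower with Norrin-expressing cells, and 5 higher and 8 lower with control cells, and of the 9 plexins 1 was higher and 7 lower, and 2 higher and 5 lower. With quantile normalization over the 12 co-cultures the splits were 11 higher and 25 lower with Norrin-expressing cells and 14 higher and 20 lower with control cells. The endothelial markers were higher in Fz4-/- co-cultures, in 7 of 12 with Norrin-expressing cells (2 lower) and in 10 of 12 with control cells (0 lower). Of the 33 markers of other cells, 0 were higher and 16 lower with Norrin-expressing cells, and 2 higher and 15 lower with control cells. Their part in these values was not tested.

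Of the 19 genes called between genotypes in cells grown alone on either substrate, 8 were called with the same sign in both co-cultures and 4 in one of them, 4 had the opposite sign in both, and 3 were called in neither. The 8 include Sema6d, whose direction on Matrigel is not settled. Unc5b was at -1.0 ± 0.11 with Norrin-expressing cells and -0.75 ± 0.11 with control cells, and Epha4 was at -1.0 ± 0.14 and -0.87 ± 0.14 in the same order. Efna5 was at -0.90 ± 0.12 and -1.23 ± 0.12. Sema3a was 2.39 ± 0.15 higher with Norrin-expressing cells and 2.32 ± 0.15 higher with control cells, with a second probe set at 1.86 and 1.84 and the remaining one at -0.07 and 0.07. Efnb2, at 0.00 ± 0.12 and 0.02 ± 0.12, did not pass. Its 3 other probe sets were lower with Norrin-expressing cells by 0.45 to 0.56, each past the threshold. Ephb4, which had the opposite sign in cells grown alone, was called lower in Fz4-/- cells with Norrin-expressing cells, at -0.33. That call was lost without WT replicate 3 or Fz4-/- replicate 2. It was also lost after quantile normalization or centring, with only the arrays compared, and with averaged replicates. With control cells Ephb4 was at -0.0065 without passing.

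Robo3, Efnb1, Epha7 and Sema6a were the 4 with the opposite sign in co-culture. Robo3 was 1.61 ± 0.12 higher with Norrin-expressing cells, at 4.79, 4.47 and 4.74 in Fz4-/- cells against 2.96, 3.27 and 2.93 in WT cells. With control cells it was 1.57 ± 0.12 higher, at 4.97, 4.81 and 5.07 in Fz4-/- cells against 3.28, 3.39 and 3.48 in WT cells. Its other probe set was at -0.04 and 0.03, so the values rest on a single probe set. Efnb1, higher in Fz4-/- cells on both substrates, was at -0.61 ± 0.14 with Norrin-expressing cells and -0.74 ± 0.14 with control cells. Epha7, higher on gelatin, was at -0.60 ± 0.19 and -0.48 ± 0.19 in the same order, and Sema6a, higher on Matrigel, at -0.55 ± 0.12 and -0.48 ± 0.12. The 3 other probe sets of Epha7 passed in neither co-culture, lying at -0.05 to 0.07 with Norrin-expressing cells and at -0.21 to 0.28 with control cells. Sema6d (1.62 ± 0.16 and 2.18 ± 0.16) and Plxna2 (0.67 ± 0.13 and 1.09 ± 0.13) were also higher. The Sema6d call with Norrin-expressing cells was lost with all its probe sets averaged.

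The lower genes included ligands that rose with Norrin in WT cells. Slit2 was at -1.80 ± 0.10 with Norrin-expressing cells and -1.17 ± 0.10 with control cells, and Sema3e at -2.15 ± 0.10 and -1.36 ± 0.10. Ntn4 was at -0.94 ± 0.12 with Norrin-expressing cells and at 0.01 ± 0.12 with control cells. Ephb1 (-0.98 ± 0.18 and -1.45 ± 0.18), Plxna3 (-1.21 ± 0.10 and -1.35 ± 0.10) and Ntn1 (-1.17 ± 0.15 and -1.07 ± 0.15) were lower in both. Probe sets of Sema4b and Plxnc1 with control cells, and of Sema3f with Norrin-expressing cells, disagreed in direction past the threshold. In the wider pathway 10 genes were higher and 20 lower of 49 with Norrin-expressing cells, and 11 and 20 with control cells, with Nrp1 at -3.90 ± 0.21 and -1.95 ± 0.21. The shares called were 61.2% and 63.3% of the 49, against 49.9% and 50.9% of all genes.

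Efna3, an ephrin-A, was the single gene of the 64 that lay higher on all 12 co-culture arrays (6.65 to 7.41) than on all 12 arrays of cells grown alone (4.75 to 5.58). The part of human transcripts in its values, and in those of Efnb2, which lay at 8.77 to 9.17 in every co-culture, was not tested.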

How the data were processed

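The authors deposited log2 values made by RMA, per the submitters' processing notes, from Affymetrix arrays of 45101 probe sets. Which arrays were normalized together is not given in the sources used here. The 64 control probe sets were left out, as were 932 probe sets with several gene symbols and 9160 with none. The remaining 34945 gave 18193 genes, each read by its probe set of highest mean over the 24 arrays. Groups were taken from the sample titles.

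Cells grown alone and co-cultures (12 arrays each) were fitted separately with limma 3.58.1 in R 4.3.3 (lmFit, contrasts and eBayes), with Benjamini-Hochberg adjustment over all genes at 0.05, and the method was tested on simulated data. Errors are limma's SE (n = 3 per group), and the number of arrays limits the precision. Genes are named where they passed, with Efnb2 and Ephb4 always given. The genes, the lists and the rules were chosen with earlier results of these data known.

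Same-numbered samples deviated together for the genotypes on gelatin (r from 0.24 to 0.40) and on Matrigel, for Matrigel in both genotypes, for Norrin in WT cells and for the genotypes with Norrin-expressing cells. They did not for Norrin in Fz4-/- cells (r from -0.19 to 0.01) or for the genotypes with control HEK293 cells. An array's best match bore its own number in 4 of 6 cases for the genotypes on gelatin, 5 on Matrigel and 6 with Norrin-expressing cells. For Norrin in WT cells it did in 4 of 6, but for Matrigel in 3 in Fz4-/- cells and 2 in WT cells. Replicate 1 lay apart from the others in all groups but the Fz4-/- co-cultures. Pairing by each number and a shared deviation of replicate 1 therefore cannot be told apart there. Alternatives were quantile normalization, centring on array medians, averaging all probe sets of a gene, only genes above the median level, only the arrays compared, the replicate block, averaged replicates and each array left out. Leaving out replicate 1 of every group was chosen after seeing the data.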

Additional observations from a re-analysis of the deposited data

Results flagged for a closer look

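The response to Norrin-expressing HEK293 cells differed between Fz4-/- and WT cells for 4 ligands by a limma test of that difference. On the log2 scale the response in Fz4-/- cells minus that in WT cells was -0.94 for Ntn4, -0.80 for Sema3e, -0.70 for Sema4b and -0.63 for Slit2. For Ntn4 the responses themselves were 0.23 in Fz4-/- cells and 1.17 in WT cells, and for Sema3e they were -0.20 and 0.59. Sema4b was at -0.43 in Fz4-/- cells and 0.27 in WT cells, passing in neither, and its second probe set was at 0.02 and -0.09. For Slit2 the responses were 0.37 and 0.99. Each genotype lay on an array set of its own, and the part of the array set in these differences was not tested.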

How the results depend on the processing

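The number of called genes of the set depended on how replicates were treated. The share of all genes called under settings other than the main fit is not given, here or above. Such counts therefore cannot be set against all genes. With replicates 2 and 3 averaged it was 2 between genotypes on gelatin, 6 between genotypes on Matrigel, 7 for Matrigel in Fz4-/- cells, 3 for Matrigel in WT cells, and 0 for the genotype difference in the response to Norrin. With replicate 1 of every group left out it was 24 between genotypes on gelatin and 1 for the genotype difference in the response to Matrigel. With the replicate number as a block it was 18 between genotypes on gelatin, 20 on Matrigel, 22 for Matrigel in Fz4-/- cells and 20 in WT cells. Under it Ephb4 passed between genotypes on both substrates and for Matrigel in WT cells, and Unc5d lost its call between genotypes with Norrin-expressing cells. As each group holds replicates 1, 2 and 3, the block leaves the differences themselves unchanged and alters only their errors.

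Among genes above the median level alone, 10 were called between genotypes on Matrigel, 10 for Matrigel in Fz4-/- cells, 5 in WT cells, 2 for the genotype difference with Norrin, 25 between genotypes with Norrin-expressing cells and 18 with control cells, where fewer genes were tested. Fitting only the arrays compared gave 9 for Matrigel in WT cells and could not be done for differences of responses, and averaging all probe sets of a gene gave 2 for the genotype difference with Norrin. Without single arrays, counts ran from 5 to 9 between genotypes on gelatin, 11 to 16 on Matrigel, 14 to 18 for Matrigel in Fz4-/- cells, 9 to 14 in WT cells, 5 to 8 for Norrin in WT cells, 3 to 4 for the genotype difference with Norrin, 36 to 41 between genotypes with Norrin-expressing cells and 35 to 37 with control cells.

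Signs turned with all probe sets of a gene averaged, for Sema6d between genotypes on Matrigel (-0.13), Sema4d (0.013) and Efnb2 (-0.020) for Matrigel in WT cells, Sema4b between genotypes with control cells (-0.34), and Efnb2 between genotypes (-0.38 with Norrin-expressing and -0.12 with control cells). Efnb2 was at -0.020 for Norrin in Fz4-/- cells after quantile normalization. With averaged replicates it was at 0.016 for the genotype difference with Norrin, and at -0.044 and -0.060 between genotypes with Norrin-expressing and control cells. Ephb4 between genotypes with control cells was at 0.18 after quantile normalization, 0.19 after centring and 0.041 with averaged replicates. Without single arrays Efnb2 ran from -0.14 to 0.058 for the genotype difference with Norrin, from -0.058 to 0.064 between genotypes with Norrin-expressing cells and from -0.054 to 0.15 with control cells, and Ephb4 ran from -0.11 to 0.047 between genotypes with control cells and from -0.031 to 0.34 for the genotype difference with Matrigel. The cause was not tested. Low signal limits the 36 genes that were not above the median gene on all arrays of any group of cells grown alone.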

Other observations

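Of the 64 genes, 30 (46.9%) passed in none of 6 comparisons (genotype on each substrate, Matrigel in each genotype, Norrin in each genotype), against 55.4% of all genes. By family these were 6 of 9 plexins, 3 of 4 Unc5 receptors, 2 of 3 Robo receptors, 2 of 3 Slits, 2 of 4 netrins, 4 of 9 EphA receptors, 8 of 20 semaphorins, 1 of 3 ephrin-B genes, 1 of 4 EphB receptors and 1 of 5 ephrin-A genes, and the difference between families was not tested. Efnb1, Epha2, Ntn4 and Sema3e passed in 4 of the 6. Epha2, a receptor of Efna1, was higher in Fz4-/- cells on both substrates and lower on Matrigel in both genotypes, where the Fz4-/- call was lost after quantile normalization. Sema3e and Ntn4 were lower on Matrigel in both genotypes, lower in Fz4-/- cells on Matrigel, and higher with Norrin in WT cells.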
